A study of Mus musculus with 6 samples.

Results

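The interferon-induced GTPases were measured in mouse liver through 10 genes, taken as the rows whose symbol is Gbp2, Gbp3, Gbp5, Gbp6, Gbp7, Igtp, Irgm1, Irgm2, Iigp1 or Ifi47. All 10 were found, 1 row each, among 55536 genes of the deposited table. Livers came from C57BL/6 mice of 8 to 10 weeks that carried floxed VMP1 alleles in both groups. The 3 samples labelled H-VMP1 KO received AAV8-TBG-cre, an adeno-associated virus with Cre recombinase under TBG, a promoter active in hepatocytes, and the 3 WT samples received AAV8-TBG-null, which has no Cre, each for 2 weeks. As the promoter is meant to limit Cre to hepatocytes, the other liver cells should keep the gene, which was not measured by cell type. The comparison concerns liver transcripts after targeting Vmp1 in hepatocytes, a gene for an endoplasmic reticulum membrane protein with roles in autophagy and lipoprotein secretion.

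Guanylate-binding proteins (GBPs, here Gbp2, Gbp3, Gbp5, Gbp6 and Gbp7) and immunity-related GTPases (IRGs, here Igtp, Irgm1, Irgm2, Iigp1 and Ifi47) are GTP-hydrolysing proteins that gather on the membranes of vacuoles and bacteria inside cells and help to break them open. Interferon gamma induces them through its receptor and transcription factors that include IRF1. In mice, Irgm1, Irgm2 and Igtp act mainly as regulators that keep the effector IRGs, such as Iigp1 and Ifi47, inactive on the cell's own membranes. Placing both families on target membranes needs the enzymes that attach ATG8 proteins to lipid in autophagy. Mouse Iigp1 is also known to have a promoter active in liver without interferon.

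The 10 genes lie on 4 chromosomes of the GRCm38 (mm10) assembly, and all are annotated as protein-coding. On the plus strand of chromosome 3 follow Gbp5 (ENSMUSG00000105504, 142493978 to 142522344), Gbp7 (ENSMUSG00000040253, 142530342 to 142550149), Gbp3 (ENSMUSG00000028268, 142560026 to 142573209) and Gbp2 (ENSMUSG00000028270, 142620602 to 142638008). Gbp6 lies on the minus strand of chromosome 5 (ENSMUSG00000104713, 105270702 to 105293698). Chromosome 11 holds Irgm1 (ENSMUSG00000046879, 48861968 to 48871683, minus strand), Ifi47 (ENSMUSG00000078920, 49076587 to 49096974), Igtp (ENSMUSG00000078853, 58199556 to 58207591) and Irgm2 (ENSMUSG00000069874, 58199618 to 58222782). Iigp1 is on chromosome 18 (ENSMUSG00000054072, 60376027 to 60392634, plus strand).

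Promoters were read from RefSeq windows on GRCm38.p6, of 250 bases before to 50 after a transcript's start. Windows were read for 8 members, 9 windows in all, since Gbp3 has a second one without either motif. Those of Gbp6 and Iigp1 were not read, so the motif counts say nothing about these genes. Member counts below take a motif in any window of the gene. They are shown because interferon signals act on known elements there and the members differed in how much they changed. The 2 motifs searched were TTCNNNGAA, the gamma-activated sequence, which reads the same on either strand, and a paired GAAA motif, GAAA and after 2 further bases a second GAAA, on either strand, the core of the interferon-stimulated response element bound by IRF factors. The paired GAAA motif was found in 7 of the 8 members, the exception being Ifi47, and in 3.44% of all 32851 windows. TTCNNNGAA was found in 4 of the 8, namely Gbp5, Gbp7, Igtp and Irgm2, and in 8.3% of all windows. The same 4 held both motifs, against 0.454% of all windows. Motif matches are in capitals below, on sequence 5′ to 3′ along the gene, ending before the first base annotated as exon. No TTCNNNGAA overlapped a paired GAAA motif, and a match only describes the letters.

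In the chromosome 11 pair Igtp (chr11:58199306-58199555, plus strand) and Irgm2 (chr11:58214727-58214976, plus strand), a TTCNNNGAA stands shortly before a paired GAAA motif. Their 300-base windows could be aligned over 266 bases, 243 of them identical, with the remaining bases in gaps.
Igtp: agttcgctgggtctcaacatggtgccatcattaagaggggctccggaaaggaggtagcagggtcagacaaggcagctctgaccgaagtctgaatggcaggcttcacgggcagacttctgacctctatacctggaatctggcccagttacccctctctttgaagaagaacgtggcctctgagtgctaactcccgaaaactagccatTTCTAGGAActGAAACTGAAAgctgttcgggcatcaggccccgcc
Irgm2: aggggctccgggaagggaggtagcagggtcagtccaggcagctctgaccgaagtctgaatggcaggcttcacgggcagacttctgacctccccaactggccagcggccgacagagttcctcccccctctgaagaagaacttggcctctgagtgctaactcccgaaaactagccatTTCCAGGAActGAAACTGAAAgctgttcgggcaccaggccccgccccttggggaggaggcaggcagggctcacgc
The chromosome 3 genes differ more among themselves, with Gbp7 (chr3:142530086-142530335, plus strand) and Gbp5 (chr3:142496684-142496899, plus strand) each holding both motifs and Gbp3 (chr3:142559794-142560025, plus strand) a pair of overlapping paired GAAA matches.
Gbp7: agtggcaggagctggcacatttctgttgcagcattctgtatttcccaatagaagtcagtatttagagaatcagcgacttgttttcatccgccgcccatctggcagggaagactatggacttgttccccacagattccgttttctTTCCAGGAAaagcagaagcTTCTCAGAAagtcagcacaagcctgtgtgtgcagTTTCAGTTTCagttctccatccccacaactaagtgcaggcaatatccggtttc
Gbp5: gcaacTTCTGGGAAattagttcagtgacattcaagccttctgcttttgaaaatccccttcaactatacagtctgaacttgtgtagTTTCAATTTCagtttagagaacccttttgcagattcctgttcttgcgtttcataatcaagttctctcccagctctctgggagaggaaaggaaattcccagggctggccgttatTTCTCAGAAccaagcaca
Gbp3: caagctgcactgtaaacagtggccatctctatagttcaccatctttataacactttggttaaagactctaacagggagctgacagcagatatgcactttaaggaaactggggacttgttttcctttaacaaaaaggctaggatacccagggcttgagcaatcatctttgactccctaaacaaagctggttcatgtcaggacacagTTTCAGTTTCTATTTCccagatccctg
In Gbp2 (chr3:142620599-142620628, plus strand) and Irgm1 (chr11:48871426-48871455, minus strand, with a pair of overlapping matches) the motif lies inside an annotated exon, so 30 bases around it are given.
Gbp2: tttagTTTCACTTTCactgtcttaagcata
Irgm1: ttcaaGAAATAGAAACCGAAActgattctc

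Values are TPM, a transcript abundance per length that sums to an equal total in every library, so the read depth is unknown. Vmp1 itself was at 157, 136 and 137 TPM in the labelled H-VMP1 KO libraries and at 70.7, 96.5 and 88.6 TPM in WT libraries. As deposited, its value goes against the label, and a gene-level value does not check a deletion of some exons. The libraries are therefore called labelled H-VMP1 KO throughout, and every direction rests on the labels. Genes at 1 TPM or more numbered 12838 to 12994 in labelled H-VMP1 KO libraries and 10835 to 11064 in WT libraries. The abundant Mup genes held 0.341% to 0.545% of TPM in labelled H-VMP1 KO libraries and 11.6% to 21.2% in WT libraries. Of 12796 genes tested, 85.2% were called, 74.5% as higher and 10.7% as lower, with a median log2 fold change of 0.77. Dividing each library by its median-of-ratios size factor, called rescaling below, moves the typical gene to a fold change near 0: log2 fold changes shifted by -0.83 in the median, and 35.1% were then called higher and 36.6% lower. Fold changes below are log2(TPM + 1) ± SE, labelled H-VMP1 KO minus WT, with Benjamini-Hochberg adjusted p from limma over all 12796 genes. On this measure Vmp1 was higher by 0.75 ± 0.13 as deposited, near the median of all genes tested. After rescaling it was at -0.18 ± 0.12 and was not called (adjusted p = 0.20, limma). The pseudocount of 1 understates changes of low genes. Means are given ± SD with n = 3 libraries a group, and the labels do not say that these came from separate animals, so the p-values measure a spread that may in part be technical.

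All 10 members were called higher in the labelled H-VMP1 KO libraries as deposited, where 74.5% of tested genes were called higher, so that count by itself is not a result about the family. The size of the change set them apart from each other. Relative to the shared shift, after rescaling, all 5 GBP genes and Irgm1 were still called higher, Iigp1 was called lower, and Igtp, Irgm2 and Ifi47 were not called. These 6 of 10 stand against 35.1% of genes tested, and the 1 lower against 36.6%, but the 6 include Gbp5, which passed the filter only through the labelled H-VMP1 KO libraries and could only be called higher. The median log2 fold change of the 10 was 1.46 on the deposited scale and 0.81 after rescaling, against 0.77 and -0.01 over all genes tested. Labelled H-VMP1 KO and WT libraries did not overlap in any of the 10 genes, as in 75.5% of genes tested with the labelled H-VMP1 KO libraries above. With no filter on low values 9 of the 10 were called higher and 0 lower, against 44.3% and 5.7% of 28532 genes, Irgm2 being the exception.

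**Figure D1:**
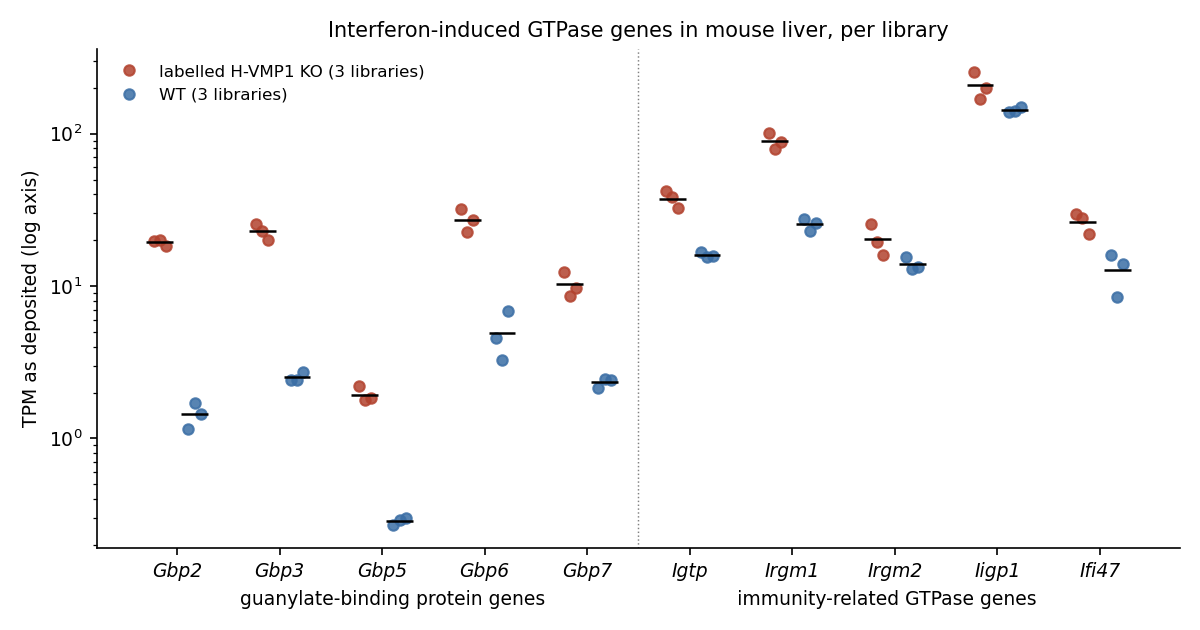
TPM of the 10 genes in each library (points, log axis) with the group mean (bars), labelled H-VMP1 KO in red and WT in blue. The labelled H-VMP1 KO points lie above the WT points for every gene, with the widest gap on the log axis for Gbp2 (18.2 to 20.1 against 1.16 to 1.72 TPM) and a narrow one for Irgm2 (16 to 25.6 against 12.9 to 15.4 TPM).

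Markers of other liver and blood cells rose in the same libraries. All 16 macrophage markers were called higher with both scalings, against 74.5% of genes tested as deposited and 35.1% with both. Of the 16, 4 were under 1 TPM in every WT library and so could only be called higher. Their summed level was 1674 to 2162 TPM in labelled H-VMP1 KO libraries and 149.6 to 249 TPM in WT libraries. Cd68, a macrophage marker, rose by 4.45 ± 0.12 log2 units as deposited and by 3.58 ± 0.09 after rescaling. The medians of the 16 were lower, at 2.76 as deposited and 1.98 after rescaling. All 18 T and NK cell markers were called higher with no filter, where 44.3% of genes were, but only 6 passed the filter, and 17 were under 1 TPM in every WT library. Without Ccl5, which many cell types make, the other 17 summed to 21.1 to 30.9 TPM in labelled H-VMP1 KO libraries and 2.6 to 3.2 TPM in WT libraries. Endothelial markers were higher in 11 of 11 as deposited and in 8 with both scalings, with sums of 186 to 235.5 and 59.6 to 70.9 TPM, labelled H-VMP1 KO before WT. Stellate cell markers were higher in 8 of 8 with both scalings (119.6 to 161 and 14.7 to 21.1 TPM, in the same order), of which 1 was under 1 TPM in every WT library. Of 7 neutrophil markers 4 passed the filter, 3 of them only through the labelled H-VMP1 KO libraries, and with no filter 5 were called higher. Of 6 B cell markers 4 passed, 2 of them only through the labelled H-VMP1 KO libraries, and with no filter 5 were called higher. Neutrophil markers summed to 28.8 to 60.4 TPM in labelled H-VMP1 KO libraries and 2.13 to 3.71 TPM in WT libraries, and B cell markers to 34.9 to 36.4 TPM in labelled H-VMP1 KO libraries and 3.06 to 7.41 TPM in WT libraries. Ly6g, a defining neutrophil marker, was at 0 in all WT libraries and at 0.13, 0.02 and 0.06 TPM in labelled H-VMP1 KO libraries. With no filter Ly6g was not called (adjusted p = 0.060, limma). No marker was at 0 in all labelled H-VMP1 KO libraries. Of 11 hepatocyte markers 9 were called lower and 0 higher as deposited, against 10.7% and 74.5% of genes tested. After rescaling all 11 were called lower, against 36.6%. Their sums were 23121 to 27674 TPM in labelled H-VMP1 KO libraries and 53373 to 70658 TPM in WT libraries. The part of these cell types in the GTPase values was not tested, and in bulk liver more cells of a type and more RNA per cell cannot be told apart.

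Gbp2, a GBP that in mouse macrophages takes part in lysing pathogen vacuoles, had the largest fold of the 10. It was at 19.8, 20.1 and 18.2 TPM in labelled H-VMP1 KO libraries and at 1.16, 1.72 and 1.45 TPM in WT libraries. All labelled H-VMP1 KO libraries were more than 10 TPM above every WT library, and the means differed 13.4-fold. The log2 fold change of Gbp2 was 3.06 ± 0.11 (adjusted p = 3.5e-08, limma), with 2.24% of tested genes showing a larger one, and 2.32 ± 0.11 after rescaling.

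Gbp3, from the same chromosome 3 cluster, followed closely. It was at 25.6, 22.9 and 20 TPM in labelled H-VMP1 KO libraries and at 2.43, 2.42 and 2.73 TPM in WT libraries. The WT libraries differed little among themselves, and the means differed 9.03-fold. For Gbp3 the log2 fold change was 2.75 ± 0.11 (adjusted p = 5.8e-08, limma), and 1.95 ± 0.11 after rescaling.

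Gbp5, which in mouse macrophages promotes inflammasome responses, was the least abundant member. It was at 2.2, 1.78 and 1.84 TPM in labelled H-VMP1 KO libraries and at 0.27, 0.29 and 0.3 TPM in WT libraries. Being under 1 TPM in every WT library, it passed the filter only through the labelled H-VMP1 KO libraries, so its call was bound to be a higher one. Its means differed 6.77-fold, while its log2 fold change of 1.19 ± 0.10 (adjusted p = 3.1e-06, limma) was held down by the pseudocount and became 2.39 with a pseudocount of 0.1 and 0.34 with quantile normalization.

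Gbp7, the GBP gene between Gbp5 and Gbp3, changed less than Gbp2 and Gbp3. It was at 12.4, 8.62 and 9.75 TPM in labelled H-VMP1 KO libraries and at 2.15, 2.47 and 2.42 TPM in WT libraries. For Gbp7 the log2 fold change was 1.74 ± 0.13 (adjusted p = 1.7e-06, limma), a 4.37-fold difference of means, and 0.97 ± 0.11 after rescaling. Of the 50-base stretches of its transcripts, 12.7% also occur in other genes, chiefly Gm43802, which overlaps Gbp7.

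Gbp6, the member from the chromosome 5 cluster, had the widest spread of the GBP genes in WT livers relative to its level. It was at 32.1, 22.5 and 27 TPM in labelled H-VMP1 KO libraries and at 4.55, 3.27 and 6.84 TPM in WT libraries, with a log2 fold change of 2.29 ± 0.23 (adjusted p = 3.2e-05, limma). This single value is uncertain, because 70.7% of the 50-base stretches of its transcripts also occur in other genes, chiefly Gm43302, and the neighbour Gbp10 shares most of its own with Gbp6. Gbp6, Gbp10 and Gm43302 summed to 38.2, 26.2 and 29.9 TPM in labelled H-VMP1 KO libraries and to 10.3, 6.52 and 14 TPM in WT libraries. The sums do not overlap either, but differ 3.06-fold where Gbp6 alone differs 5.56-fold.

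Irgm1, a regulatory IRG found on Golgi and lysosomal membranes in mouse cells, had the largest change among the IRG members. It was at 102, 78.8 and 87.8 TPM in labelled H-VMP1 KO libraries and at 27.5, 23.1 and 25.8 TPM in WT libraries. Every labelled H-VMP1 KO library was well above every WT library. For Irgm1 the log2 fold change was 1.77 ± 0.12 (adjusted p = 8.2e-07, limma), a 3.51-fold difference of means, and 0.84 ± 0.11 after rescaling. Its transcripts share 0.31% of 50-base stretches with any other gene.

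Igtp, the regulatory IRG also called IRGM3, whose protein in mouse dendritic cells is found on the endoplasmic reticulum and lipid droplets, changed less. It was at 42, 38.2 and 32.3 TPM in labelled H-VMP1 KO libraries and at 16.7, 15.6 and 15.7 TPM in WT libraries. For Igtp the log2 fold change was 1.17 ± 0.11 (adjusted p = 7.3e-06, limma) and 0.27 ± 0.11 after rescaling, where adjusted p = 0.055 missed the threshold. Its exons overlap those of Irgm2 by 162 bases on the same strand, so part of the reads of the 2 genes cannot be assigned with certainty.

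Irgm2, the third regulator, lay closest to its WT level among them. It was at 25.6, 19.4 and 16 TPM in labelled H-VMP1 KO libraries and at 15.4, 12.9 and 13.4 TPM in WT libraries, where labelled H-VMP1 KO replicate 3 is just above WT replicate 1. The log2 fold change of Irgm2 was 0.49 ± 0.16 (adjusted p = 0.016, limma). After rescaling it turned to -0.40 (adjusted p = 0.055), and the call was also lost without labelled H-VMP1 KO replicate 1 (0.32, adjusted p = 0.051), WT replicate 2 (0.45, adjusted p = 0.062) or WT replicate 3 (0.47, adjusted p = 0.054).

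Iigp1, an effector IRG, was the most abundant member in every library. It was at 254, 170 and 200 TPM in labelled H-VMP1 KO libraries and at 138, 142 and 149 TPM in WT libraries. The WT libraries lay close together and the labelled H-VMP1 KO libraries spread widely. Its log2 fold change of 0.52 ± 0.14 (adjusted p = 0.007, limma) lay below the median of all genes, with 64.2% of tested genes showing a larger one, and turned to -0.42 ± 0.13 (adjusted p = 0.022) after rescaling.

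Ifi47, the effector IRG also called IRG-47, was the most variable IRG member in WT livers relative to its level. It was at 29.5, 28 and 21.9 TPM in labelled H-VMP1 KO libraries and at 16, 8.46 and 13.9 TPM in WT libraries. WT replicate 2 was the lowest of the 6. The log2 fold change of Ifi47 was 1.03 ± 0.22 (adjusted p = 0.0028, limma) and 0.13 ± 0.26 after rescaling (adjusted p = 0.66). Olfr56, on the same strand, overlaps the exons of Ifi47 by 111 bases. Gm12188, on the opposite strand, overlaps them by 106 bases, and no source used here states whether reads were counted by strand.

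The make-up of the family, which no size factor of a library can move, differed between the groups. The 5 GBP genes summed to 92, 75.8 and 76.8 TPM in labelled H-VMP1 KO libraries and to 10.6, 10.2 and 13.7 TPM in WT libraries, a 7.10-fold difference of means. The 5 IRG genes summed to 453, 334 and 358 TPM in labelled H-VMP1 KO libraries and to 214, 202 and 218 TPM in WT libraries, a 1.81-fold difference. GBP genes therefore made up 17.7 ± 0.81% of the 10 genes' TPM in labelled H-VMP1 KO libraries and 5.15 ± 0.68% in WT libraries. These GBP sums and shares include Gbp6, whose value is uncertain because it shares sequence with Gbp10 and Gm43302. Summed, those 3 genes differ 3.06-fold, against 5.56-fold for Gbp6 alone, so the GBP sums and shares carry that uncertainty. Iigp1 alone made up 44.7 ± 2.88% in labelled H-VMP1 KO libraries and 64.3 ± 2.66% in WT libraries, and Irgm1 19.4 ± 0.76% in labelled H-VMP1 KO libraries and 11.4 ± 0.74% in WT libraries. The 10 shares of a library sum to 100%, so they are not independent. A lower share is not a lower level, as Iigp1 had a lower share but a higher TPM. For 8 of the 10 members the shares of the groups did not overlap, with a two-sided exact permutation p = 0.1, the smallest that 3 libraries against 3 can give. The exceptions were Igtp (exact permutation p = 0.2) and Ifi47 (p = 1).

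**Figure D2:**
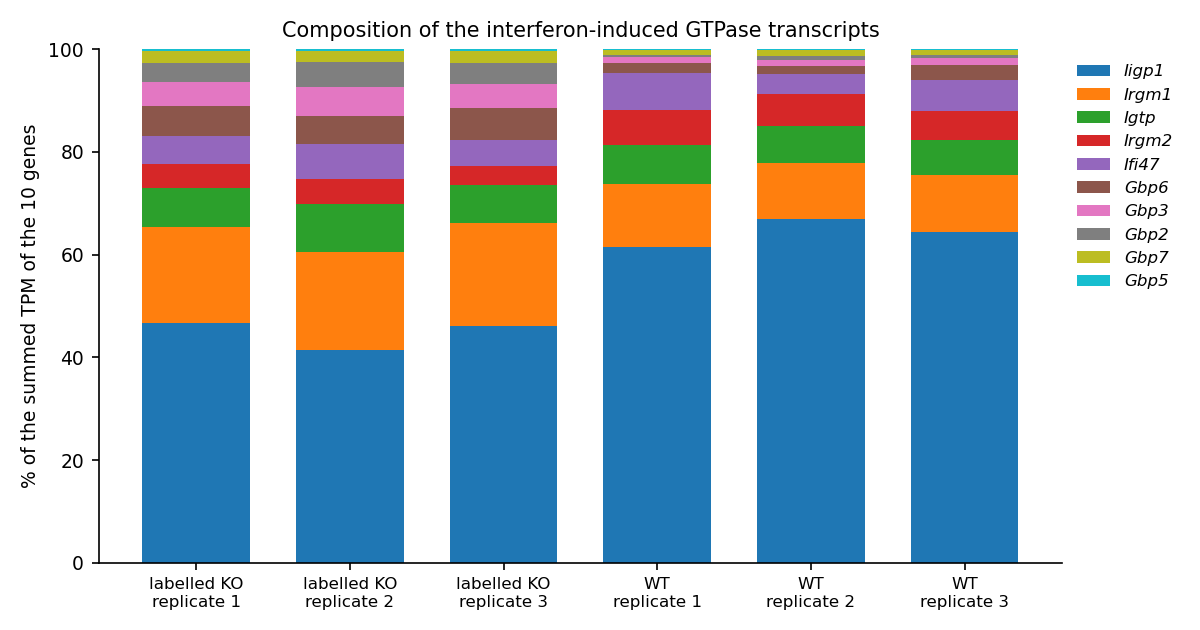
Percent of the summed TPM of the 10 genes held by each gene (stacked bars), per library, labelled H-VMP1 KO on the left and WT on the right. Iigp1 takes 41.4% to 46.6% in labelled H-VMP1 KO libraries and 61.6% to 66.9% in WT libraries, and the 5 GBP genes at the top take 16.9% to 18.5% in labelled H-VMP1 KO libraries and 4.71% to 5.93% in WT libraries.

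Each member was also set against Igtp within its own library, as a difference of log2(TPM + 1) values. Relative to Igtp, Gbp2 was higher by 1.89 ± 0.14, Gbp3 by 1.58 ± 0.12, Gbp6 by 1.12 ± 0.21, Irgm1 by 0.60 ± 0.14 and Gbp7 by 0.56 ± 0.14 log2 units in labelled H-VMP1 KO libraries (difference ± SE). Irgm2 and Iigp1 were lower relative to Igtp, with differences of -0.68 ± 0.13 and -0.65 ± 0.15. In these 7 of 9 ratios the groups did not overlap, with an exact permutation p = 0.1, the smallest possible. Gbp5 and Ifi47 differed from Igtp by 0.02 ± 0.13 and -0.14 ± 0.18 with overlapping groups, and with a pseudocount of 0.1 the Gbp5 difference was 1.18 ± 0.15. All 9 ratios share Igtp and so are not independent, and the ratios show unequal change only.

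By level, Iigp1 was highest in both groups, followed in labelled H-VMP1 KO libraries by Irgm1 and Igtp and in WT libraries by Irgm1, Igtp and Irgm2. In labelled H-VMP1 KO libraries the neighbours Gbp6, Ifi47, Gbp3, Irgm2 and Gbp2, at means of 27.2, 26.5, 22.8, 20.3 and 19.4 TPM, each overlapped the next in the ranges of their libraries. In WT libraries Irgm2 and Ifi47, at 13.9 ± 1.35 and 12.8 ± 3.87 TPM, overlapped in theirs. Gbp3 and Gbp7, at 2.53 ± 0.18 and 2.35 ± 0.17 TPM in WT libraries, overlapped slightly.

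Further members of the same families, from a list of 17 that also holds the antiviral GTPases Mx1 and Mx2, were read beside them. Of 14 tested, 11 were called higher and 2 lower, near the 74.5% and 10.7% of genes tested as deposited. With both scalings 9 were called higher and 2 lower, against 35.1% and 10.7%. The median log2 fold change of the 14 was 1.48, and 0.83 after rescaling. In the chromosome 5 cluster, Gbp8 was at 10.7 ± 2.82 TPM in labelled H-VMP1 KO libraries and 1.11 ± 0.31 TPM in WT libraries, Gbp9 at 8.32 ± 1.93 and 0.983 ± 0.18 TPM, and Gbp4 at 2.84 ± 0.49 and 0.61 ± 0.17 TPM, in the same order. Their log2 fold changes were 2.46, 2.21 and 1.25 and stayed above 0 after rescaling. Gbp4 and 9930111J21Rik2, among the 11, were under 1 TPM in every WT library and so could only be called higher. Gbp11 changed by 0.66 (adjusted p = 0.022, limma) as deposited and by -0.01 after rescaling, and Gbp10, which shares 84.1% of its 50-base stretches with other genes, by -0.27 (adjusted p = 0.45).

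On chromosome 11 the effector IRG genes Tgtp1 and Tgtp2, which share 81.2% and 86.6% of their 50-base stretches with other genes and rose by 2.62 and 1.71 log2 units, summed to 46.3, 42.2 and 31 TPM in labelled H-VMP1 KO libraries and to 5.75, 4.77 and 6.68 TPM in WT libraries, a 6.94-fold difference of means. Gm12250, annotated as a processed pseudogene, rose by 1.69 and 9930111J21Rik2 by 1.29 log2 units. Mx1 and Mx2 rose by 2.35 and 1.67, and Mx2 is annotated as a polymorphic pseudogene, as is Gbp11. The giant GTPase gene Gvin1, which shares 99.2% of its 50-base stretches with other genes, rose by 1.11 as deposited and was not called after rescaling (0.29, adjusted p = 0.32).

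The 2 genes beside Iigp1 on chromosome 18, Gm4951 (60212080 to 60247820) and F830016B08Rik (60293380 to 60303016), fell. Gm4951 was at 22.3, 15.8 and 18.3 TPM in labelled H-VMP1 KO libraries and at 36.7, 32 and 30.6 TPM in WT libraries, and every labelled H-VMP1 KO library was below every WT library. The log2 fold change of Gm4951 was -0.79 ± 0.13 (adjusted p = 3.4e-04, limma), that of F830016B08Rik was -0.85 ± 0.14 (adjusted p = 3.3e-04, limma), and both were lower after rescaling too. Gbp2b, in the chromosome 3 cluster, was under 1 TPM in all 6 libraries and did not pass the filter, at 0.25, 0.28 and 0.39 TPM in labelled H-VMP1 KO libraries and 0.55, 0.68 and 0.55 TPM in WT libraries. Its groups do not overlap, it was called lower with no filter on low values (log2 fold change -0.29, adjusted p = 0.024, limma), and it lies between Gbp3 and Gbp2, which rose. 9930111J21Rik1 and Gm12185, at 0.64 ± 0.25 and 0.107 ± 0.05 TPM in labelled H-VMP1 KO libraries and 0.0933 ± 0.01 and 0.0633 ± 0.05 TPM in WT libraries, did not pass the filter either. With no filter 9930111J21Rik1 was called higher (log2 fold change 0.57, adjusted p = 0.0065, limma) and Gm12185 was not called (adjusted p = 0.37).

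**Figure D3:**
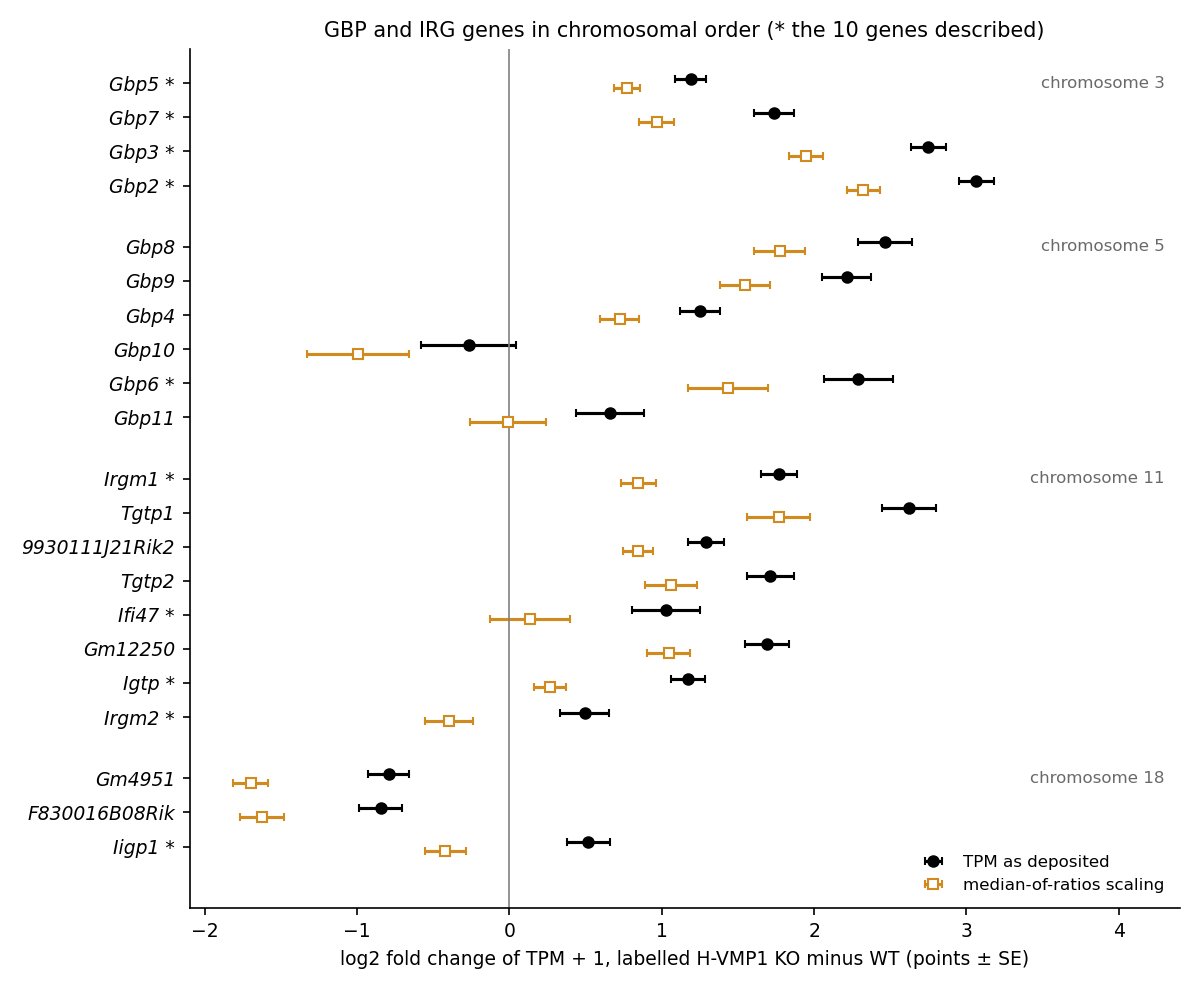
Log2 fold changes (points, ± SE) of the GBP and IRG genes that were tested, listed in chromosomal order by cluster, as deposited (black) and after rescaling (orange), labelled H-VMP1 KO minus WT. Values run from 3.06 for Gbp2 to -0.85 for F830016B08Rik as deposited, and the 3 chromosome 18 genes are all below 0 after rescaling.

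Interferon ligand genes were near 0 in both groups while most receptor and signalling genes rose as deposited. Ifng, the ligand of the interferon gamma receptor, was at 0.05, 0.1 and 0.1 TPM in labelled H-VMP1 KO libraries and at 0, 0.03 and 0 TPM in WT libraries, too low to pass the filter. With no filter Ifng was called higher (log2 fold change 0.10, adjusted p = 0.013, limma). Ifna1, Ifna2, Ifna4, Ifnl2 and Ifnl3 were listed at 0 in all 6 libraries. Of 24 tested genes among 36 ligand, receptor and signalling genes, 20 were called higher and 0 lower as deposited, against 74.5% and 10.7% of genes tested. After rescaling 12 were called higher and 6 lower, against 35.1% and 36.6% of genes tested, and all of the 12 were among the 20. The median was 1.14 as deposited and 0.22 after rescaling, against 0.77 and -0.01 over all genes tested.

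Ifngr1, the ligand-binding chain of the interferon gamma receptor, was at 68.8, 44.3 and 59.3 TPM in labelled H-VMP1 KO libraries and at 6.12, 7.43 and 6.13 TPM in WT libraries. All labelled H-VMP1 KO libraries were far above WT, and the log2 fold change of 2.93 ± 0.16 (adjusted p = 3.2e-07, limma) was close to those of Gbp2 and Gbp3. Ifngr2, the signalling chain, rose by 1.65 ± 0.14, and both chains stayed called higher after rescaling, by 2.05 and 0.76. The type I interferon receptor genes Ifnar1 and Ifnar2 rose by 0.82 and 1.17 as deposited and were not called after rescaling, at -0.05 and 0.23.

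Irf1 was at 50.6, 31.5 and 33.9 TPM in labelled H-VMP1 KO libraries and at 14.1, 10.1 and 11.2 TPM in WT libraries, a log2 fold change of 1.61 ± 0.19 (adjusted p = 6.3e-05, limma) that stayed called after rescaling (0.71). Stat2 and Irf9, which encode parts of the transcription factor that type I interferon activates, were higher by 0.52 and 0.55 as deposited and lower, at -0.40 and -0.35, after rescaling. The feedback inhibitor gene Socs1 was under 1 TPM in every library, at 0.437 ± 0.13 TPM in labelled H-VMP1 KO libraries and 0.07 ± 0.03 TPM in WT libraries.

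**Figure D4:**
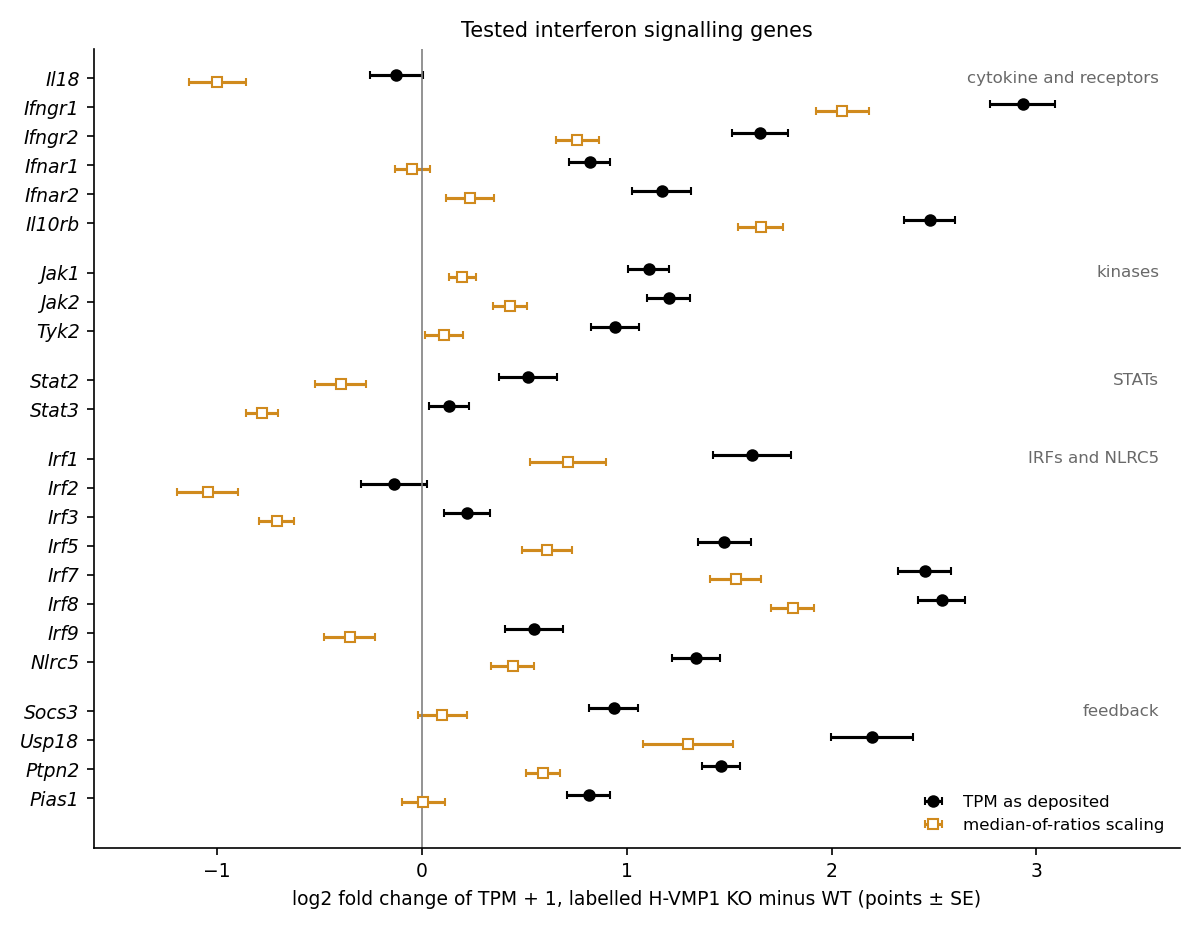
Log2 fold changes (points, ± SE) of tested interferon cytokine, receptor, kinase, transcription factor and feedback genes, as deposited (black) and after rescaling (orange), labelled H-VMP1 KO minus WT. Ifngr1 stands highest at 2.93, while Stat2 lies at 0.52 as deposited and at -0.40 after rescaling.

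Other genes that interferon gamma induces rose in all 16 tested cases of 18 listed, 14 of them with both scalings, against 74.5% and 35.1% of genes tested. Their median log2 fold change was 1.92, and 1.01 after rescaling. Of the 16, Cd274 and Batf2 were under 1 TPM in every WT library and passed the filter only through the labelled H-VMP1 KO libraries. The chemokine gene Cxcl10 rose to 370 ± 57.3 TPM in labelled H-VMP1 KO libraries, against 1.91 ± 0.23 TPM in WT libraries, and the ubiquitin-like gene Ubd to 166 ± 39.9 TPM, against 1.09 ± 0.16 TPM. H2-Ab1, a class II antigen presentation gene, rose by 2.80 ± 0.22 log2 units. Genes of the inflammasome and caspase pathway that GBPs act on rose in 9 of 9 tested cases of 10 listed, where 74.5% of genes tested were called higher. Casp1, Casp4, Aim2, Nlrp3 and Pycard, 5 of those 9, were under 1 TPM in every WT library and passed the filter only through the labelled H-VMP1 KO libraries, so they could only be called higher. With no filter all 10 were called higher, against 44.3% of genes. The nucleic acid sensor gene Zbp1 rose by 3.34 ± 0.13, Casp4, which encodes mouse caspase-11, by 2.79 ± 0.16 and Casp1 by 2.10 ± 0.13.

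Genes of the ATG8 conjugation system, on which placing of the GTPases depends, were called near the shares of all genes as deposited. Of 10 tested, 7 were called higher and 2 lower, against 74.5% and 10.7% of genes tested. After rescaling 1 was called higher and 7 lower, against 35.1% and 36.6%. The median log2 fold change was 0.46, and -0.46 after rescaling. Map1lc3a rose to 84.5 ± 22.8 TPM in labelled H-VMP1 KO libraries, against 29.4 ± 6.30 TPM in WT libraries, a log2 fold change of 1.47 that stayed called. Gabarapl1 fell to 122 ± 10.6 TPM in labelled H-VMP1 KO libraries, against 258 ± 40.5 TPM in WT libraries, with a log2 fold change of -1.07 (adjusted p = 3.5e-05, limma). Gabarap was higher by 0.93 as deposited and at -0.01 after rescaling.

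Among 7893 genes outside these lists with a mean of at least 5 TPM, those whose centred log2 profile over the 6 libraries lay nearest to the mean profile of the 10 members were Ramp2, Rab20, Plekhg5, Tagap1 and Hmces. Their Euclidean distances were 0.16 to 0.20 log2 units, and their log2 fold changes were 1.57 to 1.67. The 6 libraries form 2 groups, so the likeness includes that of the difference between them.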

How the data were processed

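RNA from 6 liver samples was sequenced, 1 library each, from total RNA extracted with Trizol, per the labels' protocols. The authors deposited 1 table of TPM per Ensembl gene. Tools and build named in the submitters' processing notes are mm10, edgeR, RSEM and STAR 2.6.1c. RSEM shares ambiguous reads among genes. Since TPM keeps no read number, the depth of each library is unknown, no counting interval is given and no count model was used. All 6 columns matched a sample title, and 0 were left unmapped.

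Genes reaching 1 TPM in 3 or more of the 6 libraries were tested on log2(TPM + 1) with limma 3.58.1 in R 4.3.3 (trend and robust variances, no replicate block, Benjamini-Hochberg adjustment over all genes tested, threshold 0.05). The fit was also run on simulated data without a shift between libraries, so that run does not bear on the scaling. Shares and ratios within a library used two-sided exact permutation tests (scipy 1.17.1). The SE of a ratio comes from limma, and p-values adjusted over the members are not given. The members and lists were chosen with earlier results of these data known. Named genes were the 10 members, all other listed interferon GTPases, signalling genes chosen whatever their result, Vmp1, up to 3 called genes of each other list with the largest change, and the 5 genes nearest in profile. Of 55536 identifiers, 55450 matched GENCODE M21 on GRCm38, and promoters are RefSeq's. Sharing of 50-base stretches was counted over all GENCODE transcripts. Alternatives changed the pseudocount, filter, scaling, variance model and block and left out each library. Counting calls made with both scalings, and summing Gbp6, Gbp10 and Gm43302 or Tgtp1 and Tgtp2, were added after seeing the data. Protein sequences were not used here. In the signalling list, 1 gene is counted but not reported here by name or drawn.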

Additional observations from a re-analysis of the deposited data

How the results depend on the processing

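The scaling between libraries decided most of what changed, and these data do not show which scaling is right, since median-of-ratios scaling assumes that most genes are unchanged. With median-of-ratios scaling 6 members were called higher and 1 lower (6 higher with both scalings), against 10 and 0 as deposited. Over all genes 4496 were then higher (4496 with both scalings) and 4689 lower; quantile normalization gave 4520 higher and 4534 lower. In the signalling list, median-of-ratios scaling gave 12 higher (12 with both) and 6 lower, quantile normalization 13 and 4, and rescaling gave 1 lower without mitochondrial and top genes and 2 lower without Mup genes. In the ATG8 list, median-of-ratios scaling gave 1 higher (1 with both) and 7 lower, and quantile normalization 3 and 6. Irgm2 reversed to -0.40 with median-of-ratios scaling and -0.29 with quantile normalization, and Iigp1 to -0.42 with median-of-ratios scaling. Gbp2, Gbp3, Gbp6, Gbp7 and Irgm1 were called higher in all 16 alternative fits and Gbp5 in all 13 that tested it, while Igtp was called in 15, Ifi47 in 14, Iigp1 in 13 and Irgm2 in 8. Irgm2 lost its call with no filter (adjusted p = 0.051). With 1 library left out, 8 to 10 members were called higher, Gbp5 could not be tested when a labelled H-VMP1 KO library was left out, and the inflammasome list gave 4 to 9 higher, since only 4 of its genes could be tested without a labelled H-VMP1 KO library. The Ifi47 share difference, 0.06 percentage points, ranged from -0.80 to 0.76, negative without labelled H-VMP1 KO replicate 2 (-0.48) or WT replicate 2 (-0.80). The Gbp5 to Igtp difference was 1.18 with a pseudocount of 0.1, against 0.02. With the replicate block 10 members were called higher, with 9427 genes higher and 1333 lower overall. Same-numbered libraries did not deviate together (correlations of 0.08, 0.04 and -0.12), and differently numbered ones correlated at -0.14 to 0.10. These values show no sign that the numbers pair samples, but cannot exclude it. The causes of other changes were not tested.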
